A study of Mus musculus with 15 samples.

Results

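The genes described here are those of the urea cycle with its mitochondrial carriers, chosen by name as Nags, Cps1, Otc, Ass1, Asl, Arg1, Arg2, Slc25a15, Slc25a13 and Gls2, and they make up 10 of the 24493 genes in the deposited table. All 10 passed the filter on low values, a TPM (a share of all transcripts, corrected for transcript length) of at least 1 in at least 3 libraries, as did 13905 genes in all. RNA sequencing was done on cells sorted from mouse liver, in 5 groups of 3 libraries. At an age of 4 weeks all mice, controls included, had been given AAV-TBG-Cre, a virus in which the hepatocyte promoter TBG drives Cre recombinase so that hepatocytes and their descendants become labelled. The groups were untreated hepatocytes, untreated biliary cells, and hepatocytes, biliary cells and reprogrammed cells from mice moved at 5 weeks to chow with DDC, a porphyrinogenic compound that injures bile ducts, and kept on it for 4 weeks. The series title names the reprogrammed cells as reprogrammed hepatocytes. The mouse strain, the reporter allele, the sex and the surface markers used for sorting are not given in the sources used here. For untreated mice the age at sampling is not listed either, so a difference in age cannot be told apart from DDC. Nothing in the labels says that the numbered libraries came from separate mice, so p-values measure the spread between these libraries, which may be technical.

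The urea cycle turns ammonia and bicarbonate into urea and runs in the hepatocytes of the liver, most strongly around the portal vein. It starts in the mitochondrion, where N-acetylglutamate made by NAGS switches on carbamoyl phosphate synthetase CPS1 and ornithine transcarbamylase OTC makes citrulline. Citrulline leaves in exchange for ornithine, and ASS1, ASL and ARG1 complete the cycle in the cytosol. ARG2 is the mitochondrial arginase found mostly outside hepatocytes, and GLS2 is the liver glutaminase that feeds ammonia to CPS1.

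The 10 genes lie on separate stretches of the genome, all annotated as protein-coding in GENCODE M21 on GRCm38, the assembly of mm10. Nags lies at chr11:102145513-102149477 (plus strand), Cps1 at chr1:67123026-67231259 (plus), Otc at chrX:10252305-10321024 (plus), Ass1 at chr2:31470207-31520672 (plus) and Asl at chr5:130011258-130029247 (minus). Arg1 lies at chr10:24915221-24927484 (minus), Arg2 at chr12:79130777-79156301 (plus), Slc25a15 at chr8:22375551-22398597 (minus), Slc25a13 at chr6:6041218-6217173 (minus) and Gls2 at chr10:128194457-128210004 (plus). RefSeq promoter sequences (GRCm38.p6) matched 5 of the 10 genes, Nags, Otc, Ass1, Slc25a13 and Slc25a15, the last with 2 starts, which gives 6 windows of the 250 bases before a start. The windows of Otc, the member that fell with DDC in both cell types under most settings, and of Slc25a13, the member with the smallest difference between untreated biliary cells and hepatocytes, are shown 5′ to 3′ on the strand of the gene. Otc is at chrX:10252055-10252304 on the plus strand and Slc25a13 at chr6:6217174-6217423 on the minus strand, and capitals mark a motif match.
Otc: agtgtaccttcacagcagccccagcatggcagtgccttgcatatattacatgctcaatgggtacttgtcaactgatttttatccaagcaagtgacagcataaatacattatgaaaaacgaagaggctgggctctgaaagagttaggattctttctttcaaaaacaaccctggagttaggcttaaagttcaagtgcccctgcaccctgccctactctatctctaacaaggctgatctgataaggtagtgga
Slc25a13: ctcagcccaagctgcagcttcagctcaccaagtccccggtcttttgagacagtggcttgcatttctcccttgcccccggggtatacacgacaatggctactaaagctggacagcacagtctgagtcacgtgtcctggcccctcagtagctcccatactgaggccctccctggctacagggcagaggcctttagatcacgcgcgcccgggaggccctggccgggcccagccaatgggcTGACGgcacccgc
Searched on both strands of the 6 windows were the TATA box TATAAA, the HNF4A core CAAAGT, the C/EBP core TTGCNNAA and the cAMP response core TGACG. Their letters occur in 12.4%, 12.6%, 9.56% and 17.8% of the 32851 mouse promoter windows of that length. The 1 match was TGACG in Slc25a13, which begins 13 bases before the start, at offset -13, and the other windows hold none of these letters.

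The sorted groups were checked against marker genes, as sums of scaled TPM (TPM divided by 1 factor per library) with the lowest and highest library. The 10 biliary markers, among them Krt19, Epcam and Sox9, summed to 20.5 to 26.2 in untreated hepatocytes, 292 to 611 in DDC hepatocytes, 4646 to 11083 in reprogrammed cells, 10741 to 12486 in untreated and 8349 to 13648 in DDC biliary cells. The 20 plasma protein genes that mark hepatocytes, among them Alb and Apoa1, summed to 256854 to 288015 in untreated hepatocytes, 169679 to 306201 in DDC hepatocytes and 55209 to 152759 in reprogrammed cells. They still summed to 48929.7 to 65296 in untreated and 26411 to 59940.2 in DDC biliary cells, so hepatocyte transcripts were abundant in the libraries labelled biliary. The 12 macrophage markers summed to 21.4 to 43.0 in untreated hepatocytes, 40.3 to 62.1 in DDC hepatocytes, 77.9 to 107.8 in reprogrammed cells, 86.3 to 121.6 in untreated and 85.3 to 190.4 in DDC biliary cells, and none of them was at 0 in every library of a group. In these bulk libraries, hepatocyte RNA from other cells, a smaller share of cells of a type and less RNA per cell cannot be told apart. The read depth is unknown, because TPM keeps no read totals.

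In untreated hepatocytes 3 enzymes carried most of the transcripts of the cycle. The 10 genes took 0.608 to 0.730% of all deposited TPM there. Of their summed TPM, Cps1 took 29.64%, Ass1 23.95% and Arg1 23.30%, followed by Asl with 6.99%, Otc with 5.81%, Gls2 with 4.29%, the ornithine carrier Slc25a15 with 3.58%, Slc25a13 with 1.68% and Nags with 0.76%. In untreated biliary cells the 10 genes took 0.248 to 0.317% of all TPM, below every untreated hepatocyte library. The DDC groups spread more widely, with 0.374, 0.714 and 0.738% in DDC hepatocytes, 0.189, 0.578 and 0.376% in reprogrammed cells and 0.140, 0.309 and 0.172% in DDC biliary cells 1, 2 and 3. DDC library number 1 was the lowest of its group for 8 of the 10 genes in hepatocytes, 9 among reprogrammed cells and 6 in biliary cells. Number 2 was the highest for 8 genes among the reprogrammed cells and for 9 in DDC biliary cells. Alb, which is no member, followed the same order in reprogrammed cells, with 15174, 56023 and 29965 scaled TPM in libraries 1, 2 and 3.

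**Figure D1:**
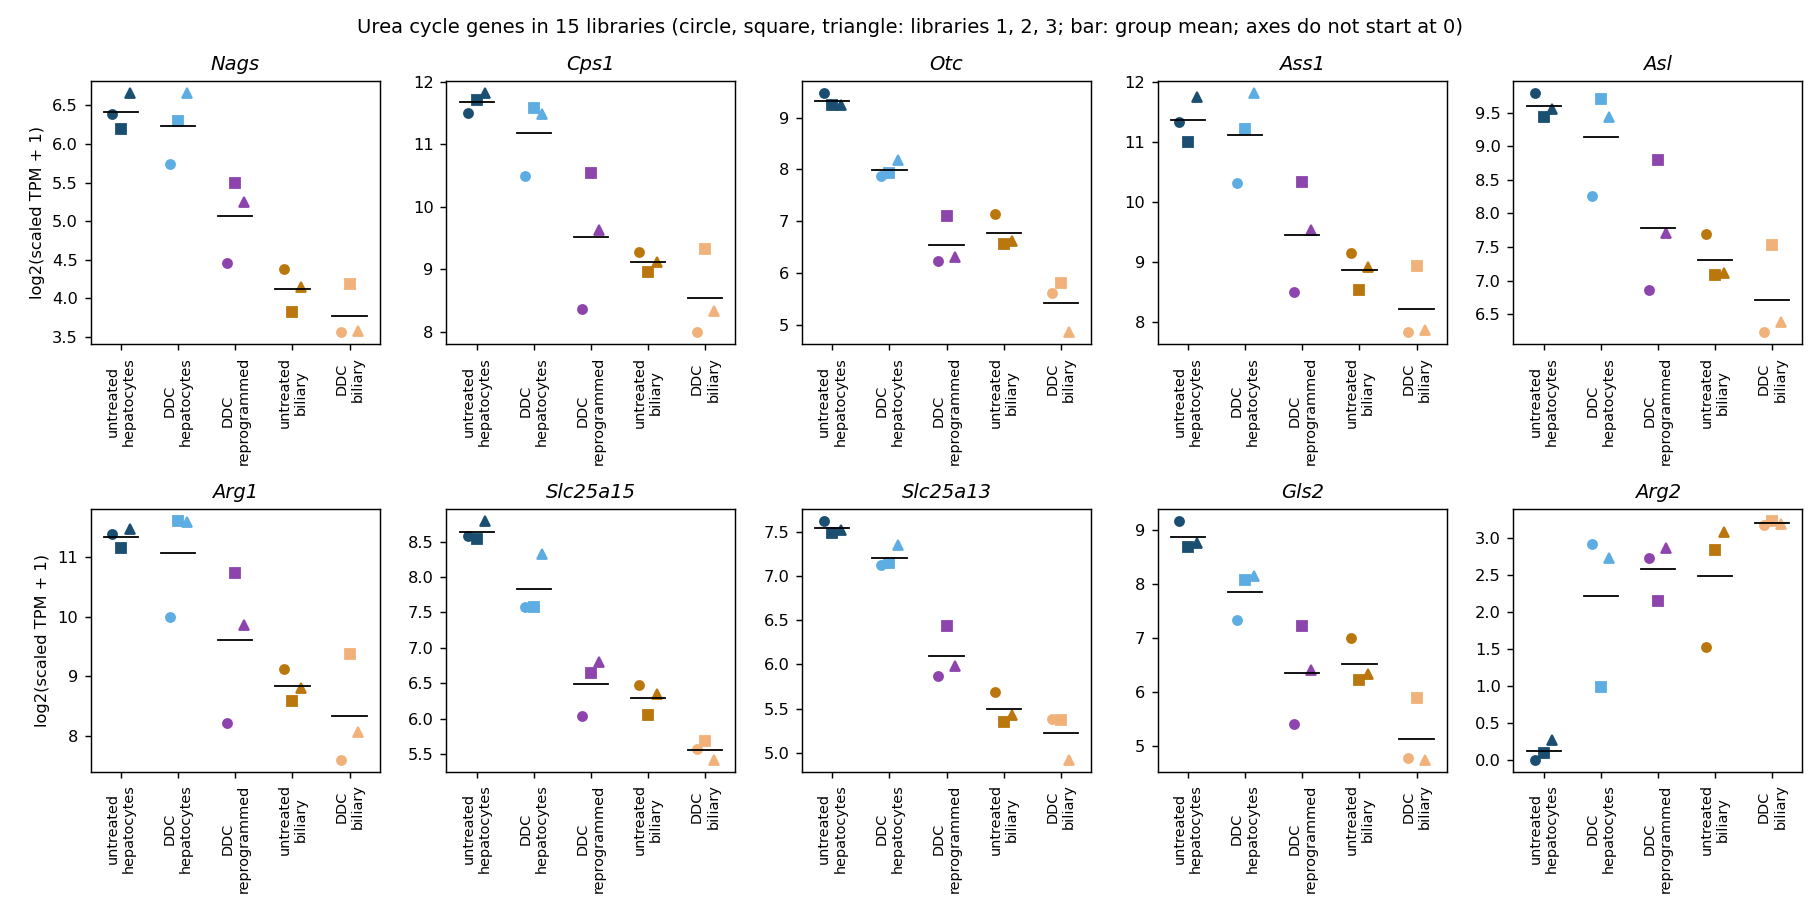
Levels of the 10 genes by library, as log2(scaled TPM + 1) on the vertical axis of each panel, with 1 point per library, 3 libraries in each of the 5 groups and a line at the group mean. In 9 panels the untreated hepatocytes stand above the biliary libraries, and in the panel of Arg2 they stand at the bottom, with library 1 listed at 0.

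Nags, which makes the activator of Cps1, stood at 83.0, 72.1 and 100.3 scaled TPM in untreated hepatocytes 1, 2 and 3 and at 52.7, 77.7 and 100.1 in DDC hepatocytes. The hepatocyte groups overlapped. It stood at 21.0, 43.9 and 37.1 in reprogrammed cells, 19.9, 13.1 and 16.7 in untreated biliary cells and 10.8, 17.2 and 11.0 in DDC biliary cells. Reprogrammed cells lay between hepatocytes and biliary cells with no overlap on either side. Nags fell by 2.30 on the log2 scale (SE 0.29; limma adjusted p = 1.53e-05) in untreated biliary cells against untreated hepatocytes.

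Cps1, which makes carbamoyl phosphate, stood at 2909.5, 3337 and 3619 scaled TPM in untreated hepatocytes and at 1445, 3065 and 2852 in DDC hepatocytes. Its mean was the highest of the set in every group but reprogrammed cells, where Arg1 averaged 978 and Cps1 868. Cps1 stood at 327, 1489 and 789 in reprogrammed cells, 622, 498 and 552 in untreated biliary cells and 254, 637 and 320.0 in DDC biliary cells. Reprogrammed library 2 lay above DDC hepatocyte library 1, so those groups overlapped, and each group overlapped the next in the order of levels. Cps1 fell by 2.56 (SE 0.48; limma adjusted p = 0.000403) on the log2 scale in untreated biliary cells against untreated hepatocytes, a comparison in which the groups did not overlap.

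Otc, which joins carbamoyl phosphate to ornithine, stood at 711, 608 and 607 scaled TPM in untreated hepatocytes and at 233, 242 and 291 in DDC hepatocytes. It stood at 74.4, 136 and 78.3 in reprogrammed cells, 140.2, 93.3 and 97.0 in untreated biliary cells and 48.0, 54.8 and 28.1 in DDC biliary cells. DDC hepatocytes and DDC biliary cells lay below the untreated group of their cell type, and only reprogrammed cells and untreated biliary cells, neighbours in the order of levels, overlapped. The spread of Otc between the DDC hepatocyte libraries (SD 31.0 around a mean of 255, n = 3) was small beside that of Cps1 (SD 880.1 around 2454, n = 3).

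The cytosolic enzymes followed Cps1. Ass1, which condenses citrulline with aspartate, stood at 2583, 2046 and 3473 scaled TPM in untreated hepatocytes, 1272, 2398 and 3621 in DDC hepatocytes, 361, 1298 and 738 in reprogrammed cells, 569, 369 and 483 in untreated biliary cells and 227, 490.3 and 232 in DDC biliary cells. Asl, which splits argininosuccinate, stood at 885, 691 and 749.7 in untreated hepatocytes, 307, 829 and 689 in DDC hepatocytes, 116, 445 and 207 in reprogrammed cells, 207, 135 and 138 in untreated and 74.2, 184 and 82.8 in DDC biliary cells. Arg1, the arginase that releases urea, stood at 2673, 2278 and 2841 in untreated hepatocytes, 1021, 3122 and 3065 in DDC hepatocytes, 295, 1708 and 931 in reprogrammed cells, 555, 382 and 443 in untreated and 193, 659 and 265 in DDC biliary cells. For all 3 genes the hepatocyte groups overlapped and every group overlapped the next in the order of levels. Arg1 had the widest spread in the DDC groups, with a mean of 2402 ± 1197 (SD, n = 3) in hepatocytes and 978 ± 708 (SD, n = 3) in reprogrammed cells.

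Slc25a15, the carrier that swaps cytosolic ornithine for citrulline, stood at 382, 369.6 and 444 scaled TPM in untreated hepatocytes, 190.1, 189 and 320.4 in DDC hepatocytes, 64.4, 99.4 and 110.0 in reprogrammed cells, 88.0, 65.4 and 80.7 in untreated and 46.4, 50.2 and 41.7 in DDC biliary cells. Slc25a13, or citrin, which brings out aspartate for ASS1, stood at 196, 179 and 183 in untreated hepatocytes, 139, 141 and 162 in DDC hepatocytes, 57.4, 85.3 and 62.3 in reprogrammed cells, 50.7, 39.9 and 41.9 in untreated and 40.7, 40.4 and 29.3 in DDC biliary cells. In proportion to their means, both carriers spread less between the libraries of each DDC group than Cps1, Ass1, Asl and Arg1. For Slc25a15 the untreated and DDC groups of each cell type did not overlap, and for Slc25a13 the hepatocyte groups did not overlap while the biliary groups did.

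Gls2, the glutaminase of hepatocytes, stood at 578, 413 and 433 scaled TPM in untreated hepatocytes and at 160.3, 269 and 283 in DDC hepatocytes. It stood at 41.4, 149 and 84.6 in reprogrammed cells, 127, 74.2 and 80.0 in untreated biliary cells and 26.4, 58.5 and 25.8 in DDC biliary cells. As with Otc, DDC hepatocytes and DDC biliary cells lay wholly below the untreated group of their cell type, and the mean of untreated biliary cells was above that of reprogrammed cells, with overlap.

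Arg2 ran the other way and at far lower levels. It was listed at 0 in untreated hepatocytes 1 and stood at 0.0685 and 0.207 scaled TPM in the others, against 6.60, 0.988 and 5.62 in DDC hepatocytes. It stood at 5.66, 3.44 and 6.28 in reprogrammed cells, 1.87, 6.19 and 7.48 in untreated biliary cells and 8.07, 8.43 and 8.11 in DDC biliary cells. Untreated hepatocytes lay below every other library, DDC biliary cells lay above every other library, and the groups between them overlapped. At such levels the log2 scale with 1 added understates a change. The part of RNA from other cells in these low levels was not tested.

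The first question was how biliary cells differ from hepatocytes. In untreated mice 9 of the 10 genes fell and Arg2 rose, by limma on log2(scaled TPM + 1) with a Benjamini-Hochberg adjusted p under 0.05 over all genes and a log2 difference of at least 1, the rule for a call throughout. By that rule 37.2% of the 13905 genes were called, 21.6% higher and 15.6% lower in biliary cells. None of the 10 genes overlapped between the groups. The share of all genes without overlap was not computed, here or in any other comparison. The median log2 difference of the 10 was -2.35 beside 0.12 for all genes. The differences were close to one another, from -2.06 (SE 0.16; limma adjusted p = 2.13e-07) for Slc25a13 to -2.56 for Cps1, with Otc at -2.55, Arg1 at -2.51, Ass1 at -2.50, Gls2 at -2.35, Slc25a15 at -2.34, Nags at -2.30 and Asl at -2.29. Arg2 rose by 2.36 (SE 0.47; limma adjusted p = 0.000628), a call that missed the size limit at 0.95 with 5 added before the log. In DDC mice the same 9 genes fell, from -1.98 for Slc25a13 to -2.91 for Ass1 with adjusted p between 3.91e-07 and 0.00168, where 34.6% of genes were called, 20.2% higher and 14.4% lower. Arg2 was 0.99 higher in DDC biliary cells (95% interval -0.03 to 2.01; adjusted p = 0.0806), short of a call although the groups did not overlap. It was called with TPM as deposited, at 1.89, and without DDC hepatocytes 1, at 1.34.

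The size of these differences depended on the scaling. With TPM as deposited, the median of all genes in untreated biliary cells against hepatocytes was 1.11 on the log2 scale, 7350 genes were called higher and 470 lower, and the median of the 10 genes was -1.08. In DDC mice the deposited TPM gave a median over all genes of 1.06, with 7142 genes called higher and 645 lower, and a median of -1.43 for the 10 genes. Quantile normalization called 1954 genes higher and 2317 lower in untreated mice, over a median of -0.18, and 1918 higher and 2216 lower in DDC mice, over a median of -0.12. The medians of the 10 genes were then -1.22 and -1.61, and Arg1 in untreated mice was not called. Slc25a13 missed the size limit in both comparisons with TPM as deposited (-0.80 and -0.89). As deposited, the mean TPM of untreated biliary cells was 40.8% of that of untreated hepatocytes for Cps1, 41.3% for Otc, 42.2% for Ass1, 42.6% for Arg1, 46.8% for Nags, 47.2% for Slc25a15, 47.6% for Gls2, 49.6% for Asl and 57.3% for Slc25a13. The 20 plasma protein genes had 40.5 to 54.1% there, with a median of 43.7%. In DDC mice the 9 genes had 28.3% (Ass1) to 53.6% (Slc25a13) and the plasma protein genes 30.2 to 42.1%. The part of hepatocyte RNA in the biliary libraries in these residual levels was not tested.

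**Figure D2:**
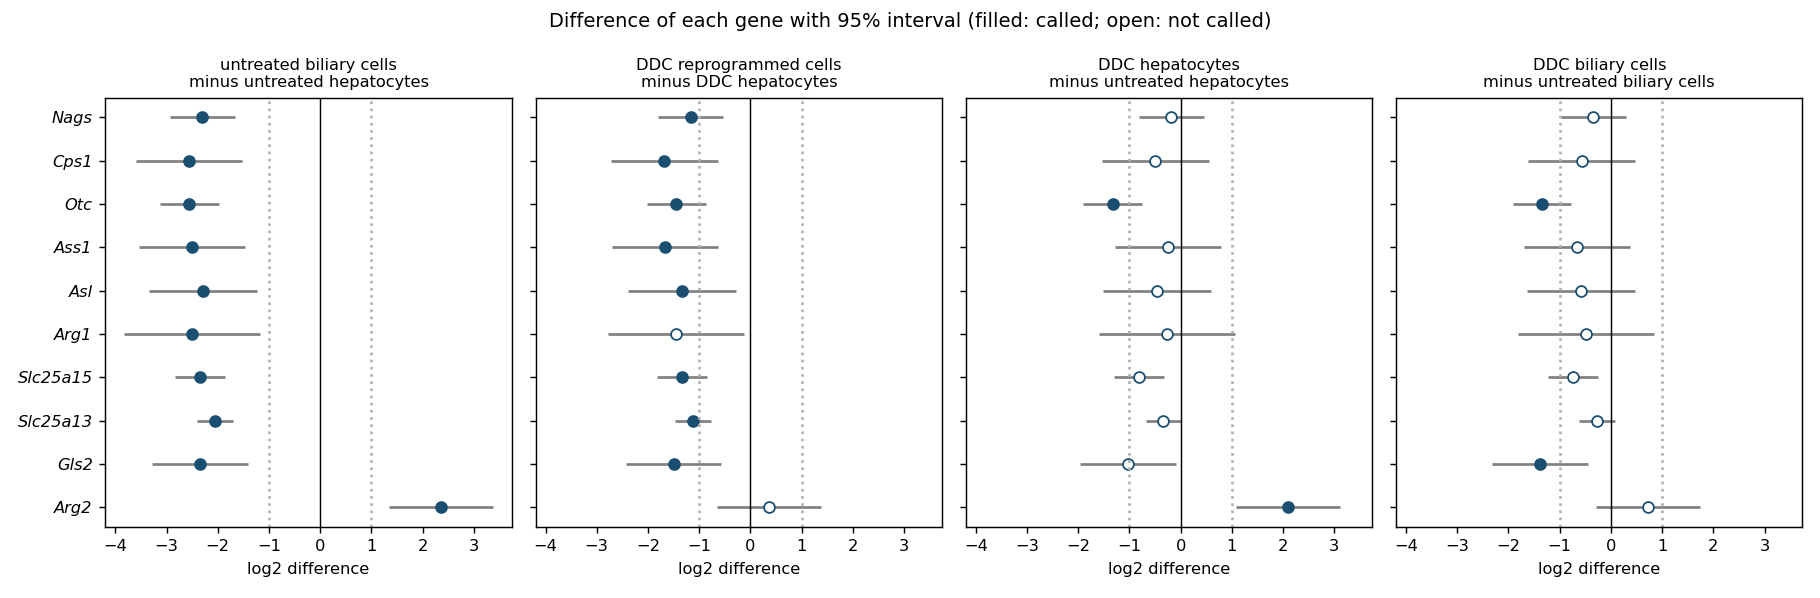
Log2 differences of the 10 genes with 95% intervals on the horizontal axis, in 4 comparisons, with filled points for genes called. Biliary cells against hepatocytes in untreated mice has 9 filled points left of 0 and Arg2 right of 0, whereas the DDC comparisons within a cell type have 2 filled points each, Otc on the left in both.

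Reprogrammed cells had lower levels of most of the cycle than DDC hepatocytes. After scaling, 8 of the 10 genes fell and none rose, where 19.5% of all genes were called, 13.7% higher and 5.77% lower. Gls2 fell by 1.50 and Otc by 1.45 (SE 0.27; limma adjusted p = 0.000774) without overlap, as did Slc25a15 by 1.33, Nags by 1.17 and Slc25a13 by 1.11. Cps1 fell by 1.68 (SE 0.48; limma adjusted p = 0.0119), Ass1 by 1.66 and Asl by 1.34, with overlapping libraries. Arg1 was at -1.46 (95% interval -2.79 to -0.13; adjusted p = 0.0664) and Arg2 at 0.37 (95% interval -0.65 to 1.39; adjusted p = 0.545), and neither was called. With the library number as a block, which treats same-numbered libraries as pairs, Arg1 was called as well, which made 9. None of the 10 was called with TPM as deposited or after quantile normalization, where the medians of the 10 were -0.60 and -0.87 and those of all genes 0.71 and -0.13. The deposited TPM gave 4240 genes called higher and 9 lower.

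The count in reprogrammed cells also moved with the samples fitted. It was 4 when only these 2 groups entered the fit (Nags, Otc, Slc25a15 and Slc25a13), which ended the calls of Cps1, Ass1, Asl and Gls2. It was 3 without reprogrammed library 1 (Otc, Slc25a15 and Slc25a13), 5 without DDC hepatocytes 3, and at most 9. The count of all genes called moved over the fits without 1 library as well, within a range given with the processing. Reprogrammed cells overlapped untreated hepatocytes in none of the 10 genes, a count with no share of all genes to set beside it. Against untreated hepatocytes, 9 genes were lower and Arg2 higher, where 33.1% of genes were called, 20.6% higher and 12.5% lower. Those differences ran from -1.35 for Nags to -2.78 for Otc, and Arg2 rose by 2.46, or by 0.98, short of a call, with 5 added before the log. The call of Arg1, at -1.73, was lost without reprogrammed library 1 or without untreated hepatocytes 1 or 3. On deposited TPM 5 of them remained called (Cps1, Otc, Arg2, Slc25a15 and Gls2), while 6356 genes were called higher and 446 lower over a median of 0.93. After quantile normalization 4 did (Otc, Arg2, Slc25a15 and Gls2), with 1852 genes called higher and 1877 lower over a median of -0.12. Against DDC biliary cells, with which the comparison above shares the reprogrammed libraries, Nags was 1.29 higher (limma adjusted p = 0.0152) and Otc 1.12 higher (adjusted p = 0.0177). Those were 2 of 10 genes called, where 3.51% of all genes were, 2.78% higher and 0.734% lower. Slc25a15 at 0.94 (adjusted p = 0.0184) and Slc25a13 at 0.87 (adjusted p = 0.00826) did not overlap between the groups but missed the size limit. Cps1, Ass1, Asl, Arg1 and Gls2 lay 0.96 to 1.26 higher with adjusted p from 0.076 to 0.194. That count was 6 with the replicate number as a block within treatment (Nags, Otc, Ass1, Asl, Arg1 and Gls2). It was 8 without reprogrammed library 1, and 0 without reprogrammed library 2 or without DDC biliary library 3. Calls among all genes moved widely over these fits too, within a range given with the processing, so the changes are not particular to the 10. On deposited TPM 1 member was called, Nags, and 120 genes were called higher and 576 lower over a median of -0.34. Quantile normalization called 391 higher and 177 lower.

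Plasma protein genes moved with the urea cycle in all of these comparisons, so each gene was also expressed relative to the mean log2 level of those 20 genes in its library, a measure added after the data had been seen. On the scaled TPM, all 20 plasma protein genes fell in untreated biliary cells (median -2.47) and in DDC biliary cells (median -2.72), and 19 of 20 fell in reprogrammed cells (median -1.38) against the hepatocytes of their treatment. Relative to them, the 9 genes other than Arg2 differed by -0.14 to 0.37 in untreated and -0.21 to 0.71 in DDC biliary cells against hepatocytes, and by -0.31 (Cps1) to 0.25 in reprogrammed cells against DDC hepatocytes. None of the 9 was called, whereas 89.2%, 92.3% and 72.8% of all genes were called higher in these 3 comparisons and 0.0216%, 0.00719% and 0.0360% lower. Their 95% intervals reached from -0.81 (Arg1) to 0.94 (Slc25a13) in untreated biliary cells, -0.77 (Ass1) to 1.29 (Slc25a13) in DDC biliary cells and -0.87 (Cps1) to 0.83 (Slc25a13) in reprogrammed cells. Of the 9, Slc25a13 came nearest, 0.71 higher in DDC biliary cells (95% interval 0.14 to 1.29; limma adjusted p = 0.0194). Arg2 was called higher in all 3, by 4.78, 3.68 and 1.73, as were most genes. The last of these was lost without DDC hepatocytes 2 or without reprogrammed library 1 or 3. In reprogrammed against DDC biliary cells the 9 genes differed by -0.46 to -0.04 and only Arg2 was called, lower by 1.95 at -1.95, where 78.2% of genes were called, 0.0216% higher and 78.1% lower.

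**Figure D3:**
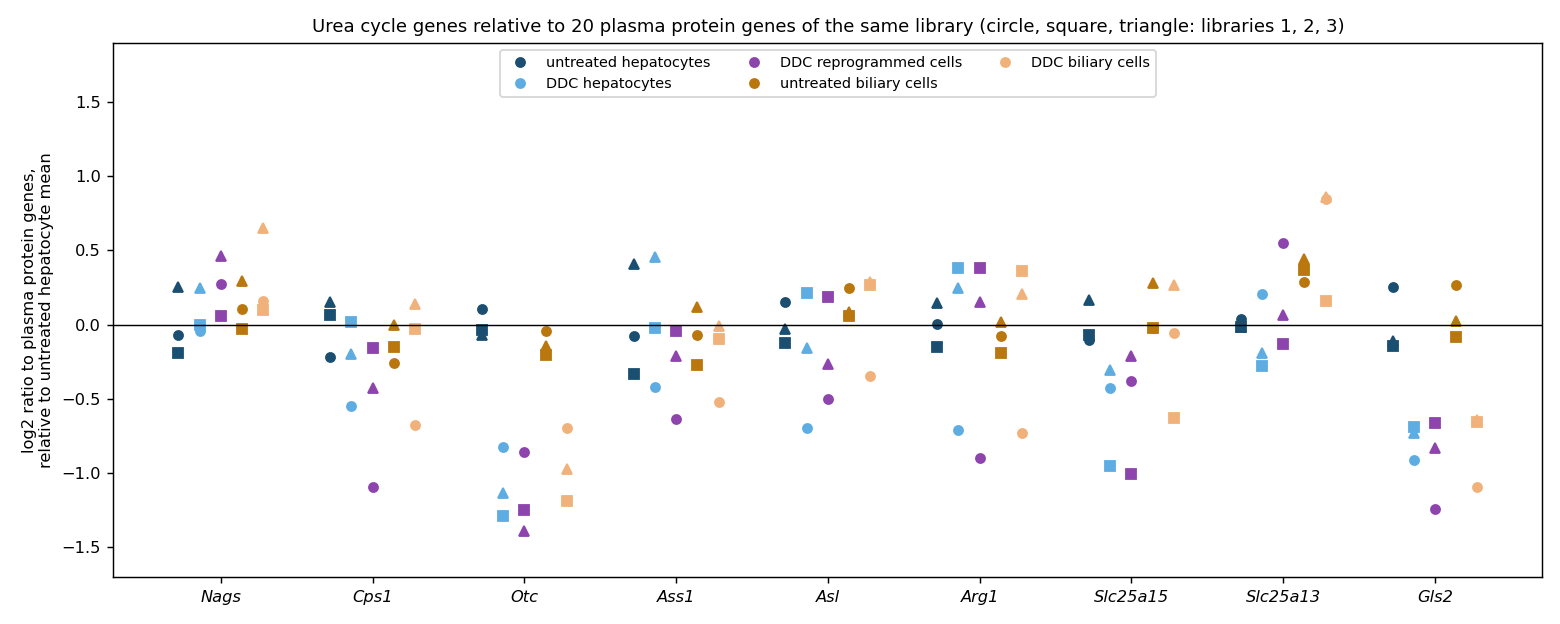
Levels of 9 genes relative to the plasma protein genes of the same library, as log2 ratios set to a mean of 0 in untreated hepatocytes, with 1 point per library and Arg2 left out. Untreated biliary cells stay near 0, between group means of -0.14 and 0.37, whereas Otc lies near -1 in the 3 DDC groups (means -1.08, -1.17 and -0.96) and Gls2 at -0.78, -0.91 and -0.80.

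The next comparison was DDC against untreated within a cell type, where a gene that is not called is not shown to be unchanged. In hepatocytes 2 of the 10 were called, where 11.0% of all genes were, 6.59% higher and 4.42% lower. Otc fell by 1.33 (95% interval -1.91 to -0.76; limma adjusted p = 0.00261) and Arg2 rose by 2.09 (SE 0.47; adjusted p = 0.00538), both without overlap. Slc25a15 was 0.81 lower on the log2 scale, at -0.81 (adjusted p = 0.0173), short of the size limit, and Gls2 was at -1.03 (adjusted p = 0.0966), both without overlap between the groups. Cps1 at -0.49 (95% interval -1.53 to 0.55), Asl at -0.46, Slc25a13 at -0.34, Arg1 at -0.27 (95% interval -1.60 to 1.05), Ass1 at -0.24 and Nags at -0.18 were not called. Otc was at -0.95, just short of the size limit, after quantile normalization, and Arg2 missed the call when only the hepatocyte groups entered the fit (adjusted p = 0.0532, within a range of 0.00032 to 0.0532 over its 16 alternatives). It also missed the size limit with 5 added before the log. With TPM as deposited 1036 genes were called higher and 360 lower, over a median of 0.17, and Otc and Arg2 kept their calls.

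In biliary cells Otc and Gls2 fell with DDC, 2 of 10 genes, where 10.4% of all genes were called, 5.68% higher and 4.74% lower. Otc fell by 1.35 (SE 0.27; limma adjusted p = 0.00258), almost the amount seen in hepatocytes, and was called under all 16 alternatives. As deposited, mean Otc in biliary cells was 41.3% of that in hepatocytes in untreated and 36.5% in DDC mice. The medians of the plasma protein genes were 43.7% and 34.2%. The part of hepatocyte RNA in the fall of Otc was not tested by any of the alternatives. Gls2 fell by 1.39 (SE 0.43; limma adjusted p = 0.0314), a call that was lost without DDC biliary library 1 or 3 or untreated biliary library 1 or 3, over a range of adjusted p from 0.00577 to 0.123 in the 16 alternatives. As deposited, mean Gls2 in biliary cells was 47.6% of that in hepatocytes in untreated and 33.3% in DDC mice. The part of hepatocyte RNA in the fall of Gls2 was not tested either. Slc25a15 lay at -0.74 (adjusted p = 0.0283) and Arg2 at 0.72 (95% interval -0.30 to 1.74), without overlap and without a call. The remaining 6 genes lay between -0.66 and -0.26. The plasma protein genes had 3 of 20 lower in each cell type, with medians of -0.22 in hepatocytes and -0.45 in biliary cells. Of all genes 4.42% and 4.74% were called lower there.

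Relative to the mean of the plasma protein genes, Otc remained lower with DDC. Those 20 genes differed widely in their own DDC response. As deposited, their means in DDC hepatocytes ran from 30.2 to 259% of those in untreated hepatocytes, with a median of 104%. They are thus no steady reference for a DDC response. In hepatocytes its ratio fell by 1.08 (95% interval -1.59 to -0.58; limma adjusted p = 0.00739), and it and Arg2 (higher by 2.34) were the 2 of 10 called, where 7.33% of genes were, 5.44% higher and 1.88% lower. Otc kept that call without any 1 library, except without DDC hepatocytes 2 or untreated hepatocytes 1, and Arg2 kept it only without DDC hepatocytes 2. Gls2 at -0.78 (adjusted p = 0.0691) and Slc25a15 at -0.56 (adjusted p = 0.333) did not overlap between the hepatocyte groups and were not called. In biliary cells Otc at -0.82 (adjusted p = 0.0371) and Gls2 at -0.87 (adjusted p = 0.0351) had no overlap and missed the size limit, so none of the 10 was called where 9.03% of genes were, 7.82% higher and 1.21% lower. Reprogrammed cells against untreated hepatocytes had Otc at -1.17 (adjusted p = 0.000318), Gls2 at -0.91 (adjusted p = 0.00286), Cps1 at -0.56 and Slc25a15 at -0.53, and of these only Otc was called. There 77.9% of genes were called, 76.4% higher and 1.44% lower, and Arg2 was 4.07 higher. On the deposited scale, the mean TPM of DDC hepatocytes was 47.7% of that of untreated hepatocytes for Otc, 59.6% for Gls2, 69.6% for Slc25a15 and between 88.0 and 108.6% for Nags, Cps1, Ass1, Asl, Arg1 and Slc25a13.

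The DDC response of biliary cells minus that of hepatocytes had no call among the 10 genes, where 8.40% of all genes were called, 3.46% higher and 4.94% lower. Arg2 had a difference of -1.37 (95% interval -2.81 to 0.07; limma adjusted p = 0.221). It was called without DDC hepatocytes 2, without all DDC libraries numbered 2 and with 0.1 added before the log, over a range of adjusted p from 0.0226 to 0.52.

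Ratios within a library do not depend on the scaling. Otc stood at 24.4, 18.2 and 16.8% of Cps1 in untreated hepatocytes and at 16.1, 7.88 and 10.2% in DDC hepatocytes, which did not overlap (exact two-sided permutation test, p = 0.1, the smallest that 3 against 3 libraries allow). It stood at 22.5, 18.7 and 17.6% in untreated and 18.9, 8.60 and 8.77% in DDC biliary cells, which overlapped (exact p = 0.3), and at 22.8, 9.11 and 9.93% in reprogrammed cells. In each DDC group library 1 held the lowest Cps1 and the highest ratio of Otc to Cps1. Gls2 averaged 14.7% of Cps1 in untreated and 9.92% in DDC hepatocytes, and 16.6% in untreated and 9.21% in DDC biliary cells, without overlap in either cell type (exact p = 0.1 in each).

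The shares of the 2 arginases differed between groups. Markers of other cells differed between these groups too. The macrophage markers summed to 21.4 to 43.0 scaled TPM in untreated hepatocytes and 85.3 to 190.4 in DDC biliary cells. The biliary markers summed to 20.5 to 26.2 in untreated and 292 to 611 in DDC hepatocytes. The part of other cells in the level of Arg2 was not tested. Arg2 made up 0.00343% ± 0.00366 (SD, n = 3) of the summed arginase TPM in untreated hepatocytes, 0.286% ± 0.318 in DDC hepatocytes, 0.920% ± 0.870 in reprogrammed cells, 1.20% ± 0.747 in untreated and 2.75% ± 1.39 in DDC biliary cells. Untreated hepatocytes lay below each other group without overlap, as did DDC hepatocytes below DDC biliary cells (exact p = 0.1 for each), and Arg1 remained the main arginase in every library. In all 90 such exact tests were made, on 9 ratios over the 10 pairs of groups, and the smallest Benjamini-Hochberg adjusted p over them was 0.5625.

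**Figure D4:**
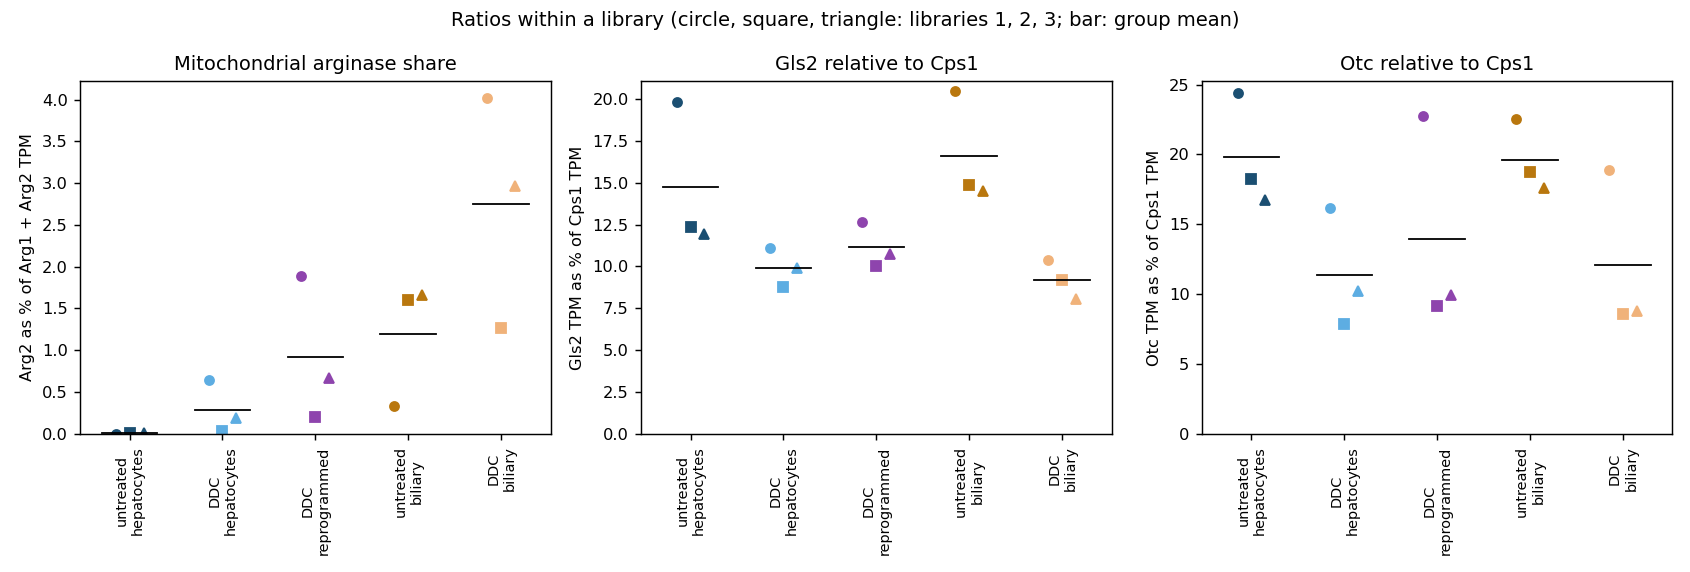
Ratios within a library on the vertical axes in percent, with 1 point per library and a line at the group mean: the Arg2 share of arginase TPM, and Gls2 and Otc as percentages of Cps1. The Arg2 share is lowest in untreated hepatocytes and averages 2.75% in DDC biliary cells, and Gls2 relative to Cps1 is lower in the DDC than in the untreated group of hepatocytes and of biliary cells.

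Neighbouring pathways were read from lists, and all list counts here and below are on the scaled TPM only. With TPM as deposited, just 9 of all genes were called lower in reprogrammed cells against DDC hepatocytes, and 4240 higher. The lists were not counted under that scaling, so the falls given for them in that comparison depend on the scaling. Of the ammonia, glutamine and glutamate list, 13 of 14 genes were tested. In untreated biliary cells against hepatocytes 1 rose and 9 fell (median -1.76), where 21.6% of all genes were called higher and 15.6% lower. Car5a, the mitochondrial carbonic anhydrase that supplies bicarbonate to CPS1, fell by 2.42 (limma adjusted p = 2.7e-06), the glutamine transporter Slc38a3 by 2.47 and the aspartate aminotransferase Got1 by 2.40. In reprogrammed cells against DDC hepatocytes 1 rose and 6 fell (median -0.88), where 13.7% of all genes were called higher and 5.77% lower. Slc38a3 fell by 1.44 and Car5a by 1.42. DDC hepatocytes had 1 higher and 4 lower than untreated ones, where 6.59% of all genes were called higher and 4.42% lower. Glul, the glutamine synthetase of pericentral hepatocytes, fell by 2.33 (limma adjusted p = 0.0057), from 277 ± 7.93 to 65.5 ± 50.8 scaled TPM (SD, n = 3). Car5a fell by 1.82 and Asns, the asparagine synthetase, rose by 2.09. In DDC against untreated biliary cells 1 rose, Asns by 1.91, and 1 fell, Car5a by 1.97. Of all genes 5.68% were called higher there and 4.74% lower, so these counts say nothing particular about the list. Car5a stood at 29.4, 17.5 and 22.4 scaled TPM in untreated and at 6.11, 6.01 and 3.42 in DDC biliary cells.

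Of 17 genes of arginine, ornithine, proline and polyamine metabolism 15 were tested, and they moved in both directions. In untreated biliary cells 3 rose and 6 fell, where 21.6% of all genes were called higher and 15.6% lower. Aldh18a1, which opens proline synthesis, was higher by 2.63, the arginine transporter Slc7a1 higher by 2.48 and its hepatic relative Slc7a2 lower at -2.48. In reprogrammed cells against DDC hepatocytes 3 rose and 3 fell, where 13.7% of all genes were called higher and 5.77% lower. Slc7a1 rose by 2.23 (limma adjusted p = 2.9e-07), Nos2, the inducible nitric oxide synthase, by 2.12 and Aldh18a1 by 1.51. Nos2 had 0.439 ± 0.0355 scaled TPM in DDC hepatocytes, 5.47 ± 2.07 among reprogrammed cells and 11.9 ± 3.56 in DDC biliary cells (SD, n = 3). It rose with DDC in biliary cells by 3.64 (adjusted p = 1.9e-07), and its DDC response was larger there than in hepatocytes by 3.22 (adjusted p = 2.6e-05). Macrophages can also express Nos2. Of the 11 macrophage markers tested 1 rose and 1 fell with DDC in biliary cells (median -0.32), where 5.68% of all genes were called higher and 4.74% lower. Their sums were 86.3 to 121.6 in untreated and 85.3 to 190.4 in DDC biliary libraries. The 10 lymphocyte and neutrophil markers summed to 1.11 to 2.17 and 21.4 to 28.9 in the same libraries, and both of 2 tested rose (median 3.43). The part of any of these cells in the level of Nos2 was not tested. In hepatocytes 3 of the 15 rose with DDC and 1 fell, where 6.59% of all genes were called higher and 4.42% lower. Sat1 rose by 1.35 and Aldh18a1 by 1.21, and Oat, the ornithine aminotransferase, fell by 1.08.

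The malate-aspartate and mitochondrial carrier list (9 of 10 tested) had 7 genes lower and none higher in biliary cells than hepatocytes in both treatments. Of all genes 15.6% were called lower there in untreated and 14.4% in DDC mice. In reprogrammed cells 5 were lower than in DDC hepatocytes, where 5.77% of all genes were. Among the 5 was the glutamate carrier Slc25a22, lower by 1.28 on the log2 scale, at -1.28. With DDC none of the 9 was called in either cell type, where 11.0% and 10.4% of all genes were, so the count says nothing particular about a list this short. Among 11 regulators of urea cycle genes, all tested, 7 were lower and 2 higher in biliary cells than hepatocytes of untreated mice. Of all genes 15.6% were called lower there and 21.6% higher. The 2 higher were Foxa2 at 1.18 and Ppargc1a at 1.17, named after their values were seen. In DDC mice 7 were lower and none higher, where 14.4% of all genes were called lower and 20.2% higher. Against DDC hepatocytes, 4 were lower and none higher in reprogrammed cells, where 5.77% of all genes were called lower and 13.7% higher. In that last comparison the glucagon receptor Gcgr was at -1.45, the factor Creb3l3 at -1.25 and Cebpb, a C/EBP factor, at -1.24, all called. With DDC none of the 11 was called in hepatocytes and 1 in biliary cells, the coactivator Ppargc1a at -1.29, beside the 11.0% and 10.4% of all genes called there. The difference between these responses was called for 2 of the 11, Ppargc1a at -1.61 and Foxa2 at -1.07, where 8.40% of all genes were called. Against DDC biliary cells, 4 regulators were higher in reprogrammed cells, where 2.78% of all genes were called higher. Among the 4 were Creb3l3, by 1.40, and Gcgr, by 1.31.

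Across the 15 libraries the log2 levels of the 9 genes other than Arg2 correlated with one another at Pearson's r from 0.856 to 0.988, and Arg2 with them at -0.697 to -0.852. These are descriptions over libraries that share group and scaling. The genes with patterns most like each member, among 9449 candidates with at least 10 scaled TPM in some group, were Alb (0.991) and Cth (0.989) for Cps1, Cth (0.993) and Dcxr (0.993) for Ass1, and Pon1 (0.998) and Phyh (0.997) for Otc. They were Marc2 (0.994) and Uqcr11 (0.993) for Nags, Gpx1 (0.996) and Sdhd (0.996) for Slc25a13, Larp1b (0.993) and Ndufb11 (0.992) for Slc25a15 and Cyp2c23 (0.995) and Hsd11b1 (0.994) for Gls2. Gnmt (0.993) for Asl and Gchfr (0.997) for Arg1 each shared first places with an unnamed RIKEN gene, and Cdc42se1 (0.945) and Sptlc2 (0.938) were nearest to Arg2.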

How the data were processed

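RNA from sorted mouse liver cells was sequenced, and the authors deposited gene TPM computed with Salmon for mm10, per the submitters' processing notes (its version is not given). The table held 24493 genes in 15 libraries, assigned to groups by their labels. Depth is unknown, so no counting error can be given.

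Genes with a TPM of at least 1 in at least 3 libraries were kept (13905). Library scale factors were median ratios to the across-library geometric mean, taken from 11924 genes. The values log2(scaled TPM + 1) were fitted with limma 3.58.1 in R 4.3.3, with a trend, in 1 fit of 5 groups with 10 residual degrees of freedom. A gene was called at a difference of at least 1 on the log2 scale and an adjusted p (Benjamini-Hochberg, all genes) under 0.05. Ratios within libraries were compared by exact permutation with SciPy 1.17.1. Plots used Python 3.11.15 and matplotlib 3.10.9.

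The members and lists were chosen with earlier results of these data known. All members are named, and 1 other gene of a list is not reported here. From each other list up to 3 called genes per comparison, those with the largest difference, could be named, and for likeness 2 genes per member. Ratios other than that of the arginases, and levels relative to plasma proteins, were added after seeing the data. The marker lists of endothelial, stellate, lymphoid and red cells were summed too and are given with the other observations.

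Library numbers are from the titles. Deviations of same-numbered libraries from their group means correlated at 0.150 to 0.236 between untreated hepatocytes and biliary cells, 0.136 to 0.449 between reprogrammed cells and DDC hepatocytes, and 0.208 to 0.456 between reprogrammed and DDC biliary cells. The numbers were therefore taken as a pairing in the replicate block, although the labels state none and the main fit used no block. Between DDC hepatocytes and DDC biliary cells they did so at 0.0436 to 0.319, below 0.1 in part, and between treatments at -0.118 to 0.0891. Alternatives were other scalings, pseudocounts of 0.1 and 5, other filters, a fit of only the compared groups, a replicate block, and leaving out libraries.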

Additional observations from a re-analysis of the deposited data

How the results depend on the processing

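In biliary cells against hepatocytes, untreated or with DDC, the direction of all 10 genes held under every alternative run. Over the leave-one-library-out fits the count of the 10 genes called was 10 in each fit for untreated biliary cells against hepatocytes, 9 to 10 in DDC mice, 3 to 9 for reprogrammed cells against DDC hepatocytes, 0 to 8 against DDC biliary cells and 9 to 10 against untreated hepatocytes, 2 to 3 for DDC in hepatocytes, 1 to 2 in biliary cells and 0 to 1 for the difference of these responses. The counts of all genes called ran over 5041 to 5256, 4534 to 5120, 2257 to 3300, 99 to 833, 4351 to 4901, 1353 to 1644, 1218 to 1666 and 972 to 1250 in the same order. Relative to plasma proteins the ranges are given with the main fit included. The counts of the 10 were 0 to 1 for reprogrammed cells against DDC hepatocytes and against DDC biliary cells. For DDC in hepatocytes they were 0 to 2.

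On TPM as deposited the 10 genes had 0 calls for reprogrammed cells against DDC hepatocytes, 1 against DDC biliary cells and 5 against untreated hepatocytes, and all genes had 7820 calls in untreated and 7787 in DDC biliary cells against hepatocytes and 4249 in reprogrammed cells against DDC hepatocytes. Quantile normalization gave 0 calls among the 10 for reprogrammed cells against DDC hepatocytes, 4 against untreated hepatocytes and 1 for DDC in hepatocytes. A fit of only the compared groups gave 4 against DDC hepatocytes, 0 against DDC biliary cells (3 among all genes) and 1 for DDC in hepatocytes. A pseudocount of 5 gave 1 call among the 10 for DDC in hepatocytes, and 3371, 3023, 1482, 298, 2765, 797, 750 and 582 calls among all genes in the order above. A pseudocount of 0.1 gave 2330 for DDC in hepatocytes, and 1 call among the 10 for the difference of responses. For reprogrammed against DDC biliary cells, leaving out all DDC libraries numbered 1 gave 8 calls among the 10 (925 among all genes) and leaving out those numbered 2 gave 0 (277), and the latter gave 1 for the difference of responses.

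With the replicate block within treatment, 6 of the 10 genes were called between reprogrammed and DDC biliary cells and 9 between reprogrammed cells and DDC hepatocytes. The replicate block over all samples gave 2 and 9, and no block ended a call. The values with it for all genes were 5207, 4854, 2774, 560, 4633, 1601, 1507 and 1255 calls. With 1 added to both genes, the Arg2 share of arginase in untreated hepatocytes was 0.0697%. Without 1 library the share ran over 0.0015 to 0.00515% in untreated hepatocytes, 0.966 to 1.63% in untreated biliary cells, 0.107 to 0.413% in DDC hepatocytes, 0.436 to 1.28% in reprogrammed cells and 2.11 to 3.49% in DDC biliary cells.

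Differences that changed sign were small and not called. Arg2 in reprogrammed cells against DDC hepatocytes was -0.25 after quantile normalization and -0.026 without all DDC libraries numbered 2, and ran from -0.24 without DDC hepatocytes 2 to 0.72 over the fits without 1 library. For DDC in hepatocytes, Nags was 0.083 with TPM as deposited, Ass1 was 0.023 with TPM as deposited and 0.17 after quantile normalization, and Arg1 was 0.087 after quantile normalization. Without DDC hepatocytes 1, also when every DDC library numbered 1 was left out, Nags was 0.065, Ass1 0.16 and Arg1 0.26, the highest values without 1 library, and the lowest were -0.39, -0.59 and -0.55. The cause of these changes was not tested. Over all alternatives for single genes, 1054 values kept sign and call, 66 lost a call, 30 gained one and 13 changed sign. Depth is unknown and sets no stated limit.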

Other observations

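The summed markers of other cells varied between groups. The 8 endothelial markers summed to 9.99 to 12.4 scaled TPM in untreated hepatocytes and 13.9 to 34.0 in DDC biliary cells. None of 7 tested was called between the untreated cell types, where 37.2% of all genes were. The 8 stellate and fibroblast markers summed to 1.34 to 5.04 in untreated hepatocytes, 18.8 to 61.7 in reprogrammed cells and 14.8 to 82.5 in DDC biliary cells. Of 7 tested, 3 rose in biliary cells against hepatocytes in each treatment and 1 in reprogrammed cells against DDC hepatocytes. Of all genes 21.6% (untreated), 20.2% (DDC) and 13.7% (reprogrammed) were called higher there. The 10 lymphocyte and neutrophil markers summed to 1.70 to 2.67 in untreated hepatocytes and 1.11 to 2.17 in untreated biliary cells, against 10.2 to 15.2, 13.5 to 32.2 and 21.4 to 28.9 in DDC hepatocytes, reprogrammed and DDC biliary cells. Of 2 tested, both rose with DDC in hepatocytes and in biliary cells, where 6.59% and 5.68% of all genes were called higher. The 5 red cell markers summed to 114 to 137 in untreated hepatocytes and 10.2 to 33.9 over the other groups, and 2 of them were listed at 0 in every library.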
